A study of Mus musculus with 13 samples.

Results

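Hbegf, Btc, Nrg1, Nrg3, Nrtn, Bdnf, Ntf3, Inhba and Inhbb encode secreted or membrane-released ligands of the EGF, GDNF, neurotrophin and activin families. All 9 genes had a row in the table of dissociated neurons (9 of 15114 genes) and in the table of brain section spots (9 of 32285 genes), and they were chosen by name with earlier results of these data known. Gene expression was measured in the mouse retrosplenial cortex, a midline cortical area, in 765 neurons of wild-type B6 mice that were microdissected from acute slices, dissociated and pooled over slices. The neurons formed 11 samples from 3 animals, and each cell was dissected at an anterior (256 cells), medium (217 cells) or posterior (292 cells) level. In addition, 2 sections of flash-frozen wild-type brain, called S4 and S8 here, were taken at 10 µm, stained for NeuN and DAPI and profiled on Visium slides, where a spot can hold several cells. No treatment was named for any group, all groups were wild type, and age and sex are not given in the labels used here.

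Ligands of the EGF family are made as membrane proteins, are released by shedding enzymes and act on ErbB receptor tyrosine kinases: HB-EGF (Hbegf) and betacellulin (Btc) bind Egfr and Erbb4, and the neuregulins bind Erbb3 or Erbb4. Neurturin (Nrtn) belongs to the GDNF family and signals through the co-receptor Gfra2 and the kinase Ret, while the neurotrophins BDNF and neurotrophin-3 (Ntf3) act mainly on Ntrk2 and Ntrk3. Inhba and Inhbb encode the beta subunits of activins, TGF-beta family dimers that bind the type II receptors Acvr2a and Acvr2b with the type I receptors Acvr1b or Acvr1c and are neutralized by follistatin (Fst). In cortex, BDNF is known as an activity-regulated factor for dendrites and synapses.

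The stretch of 250 bases before an annotated transcript start is shown for 4 of the genes, because Bdnf and Inhba were both highest in neuron cluster 5 and Nrtn and Btc both highest in cluster 7 (clusters are defined with the results below). Ligand windows on 1 chromosome were left out of the search, a limit not set on the background windows, and Hbegf and Nrg1 had no window searched. The sequences are from RefSeq on GRCm38.p6, where 14 windows of 7 of the 9 genes were searched. They run 5′ to 3′ on the strand of the gene, and capitals mark a match to the motifs searched on both strands: the core of the cyclic AMP response element (TGACG or its complement CGTCA), the AP-1 motif TGANTCA, the E-box CACGTG and the TATA motif TATAAA.
Bdnf chr2:109692186-109692435, plus strand: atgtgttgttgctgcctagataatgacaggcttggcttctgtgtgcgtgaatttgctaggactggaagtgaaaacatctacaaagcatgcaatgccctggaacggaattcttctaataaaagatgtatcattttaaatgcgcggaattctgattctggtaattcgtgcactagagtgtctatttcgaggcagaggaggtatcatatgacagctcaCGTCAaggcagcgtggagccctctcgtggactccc
Inhba chr13:16011601-16011850, plus strand: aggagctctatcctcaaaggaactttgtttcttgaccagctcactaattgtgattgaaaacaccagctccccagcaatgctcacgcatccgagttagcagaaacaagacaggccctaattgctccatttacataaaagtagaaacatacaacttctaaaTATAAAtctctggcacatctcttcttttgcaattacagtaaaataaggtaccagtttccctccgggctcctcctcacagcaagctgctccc
Nrtn chr17:56757549-56757798, minus strand: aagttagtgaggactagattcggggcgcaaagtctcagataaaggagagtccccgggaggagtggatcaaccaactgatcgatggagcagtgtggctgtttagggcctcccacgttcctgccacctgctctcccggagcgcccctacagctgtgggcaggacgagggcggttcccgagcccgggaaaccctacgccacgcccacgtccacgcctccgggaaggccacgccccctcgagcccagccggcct
Btc chr5:91402995-91403244, minus strand: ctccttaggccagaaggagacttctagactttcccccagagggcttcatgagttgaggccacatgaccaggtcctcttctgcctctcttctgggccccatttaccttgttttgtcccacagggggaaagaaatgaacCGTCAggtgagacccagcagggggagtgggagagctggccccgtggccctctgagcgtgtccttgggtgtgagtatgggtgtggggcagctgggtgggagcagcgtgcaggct
The response element core occurred in 2 of the 14 windows, against 17.8% of 32851 windows of the same length before annotated starts. In this Bdnf window, 1 of 7 for Bdnf, its first base was 35 bases upstream of the start, and in the Btc window it was 113 bases upstream. The TATA motif was found in 1 window, that of Inhba, 91 bases upstream (12.4% of all windows hold it). The Nrtn window held no match to these motifs and was GC-rich, at 64.8% G and C against 43.2% for Inhba and a median of 52.4% over all windows. The AP-1 motif occurred in 1 other Bdnf window and the E-box in 1 Ntf3 window, against 6.75% and 6.02% of all windows, and the full response element TGACGTCA in 0 of 14 against 1.55%. A match is a description of the letters only.

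Neurons were grouped by clustering into 10 clusters, numbered by size, and 756 of 765 cells had a count of Slc17a7, the vesicular glutamate transporter of excitatory neurons. The leading genes of cluster 1 (201 cells) were Calb1, Penk and Ddit4l, those of cluster 2 (122 cells) Thsd7a, Pygm and Hsd11b1, and those of cluster 3 (94 cells) Ptprm, Aldh1l1 and Il1rapl2. Clusters 4 (80 cells) and 7 (61 cells) both had higher levels of Fezf2, Bcl11b, Parm1 and Chst8, markers of layer 5 extratelencephalic neurons. Their first 3 leading genes, C1ql2 and Qrfpr among them, were none of these markers, and the clusters stay unnamed. Cluster 5 (74 cells) is layer 6 intratelencephalic-like, cluster 6 (71 cells) layer 6 corticothalamic-like and cluster 9 (11 cells) layer 6b-like. Cluster 8 (40 cells) shared the leading genes of cluster 1 in shallow cells, with a median total of 75635 counts, and cluster 10 (11 cells) was led by Kcnip1 and Pvalb, with interneuron markers at a sum of 17.4 CPM (Gad1 at 0) and excitatory markers at 859 CPM, and stays unnamed. The median total per cell was 65843 counts in animal 1, 132797 in animal 2 and 185995 in animal 3. In clusters 1 to 10 the 4 astrocyte markers summed to 11.96 CPM or less, whereas the 4 oligodendrocyte markers summed to between 45.4 and 194 CPM, highest in clusters 7 and 4, which were also the highest clusters for Nrtn. The part of oligodendrocyte RNA in the ligand levels was not tested. Levels are given as CPM, counts scaled to a common library total, summed over the cells of 1 animal in 1 cluster, with at least 5 cells, which left 3 animals in clusters 1, 2, 3, 5, 6 and 7, 2 in clusters 4 and 8 and 1 in clusters 9 and 10.

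By this measure 3 of the 9 genes (Hbegf, Nrtn and Inhba) had 1 cluster whose every animal lay above every animal of the other clusters, against a background of 7.09% of all 15114 genes, and of 9.08% of the 10364 genes that reach 10 CPM in a cluster. The clusters were drawn from these same counts and the genes were picked with the pattern known, so the levels below are a description and carry no test. The other 35 genes of these pathways that were analysed in neurons, out of a list of 54, held 0 such genes.

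**Figure D1:**
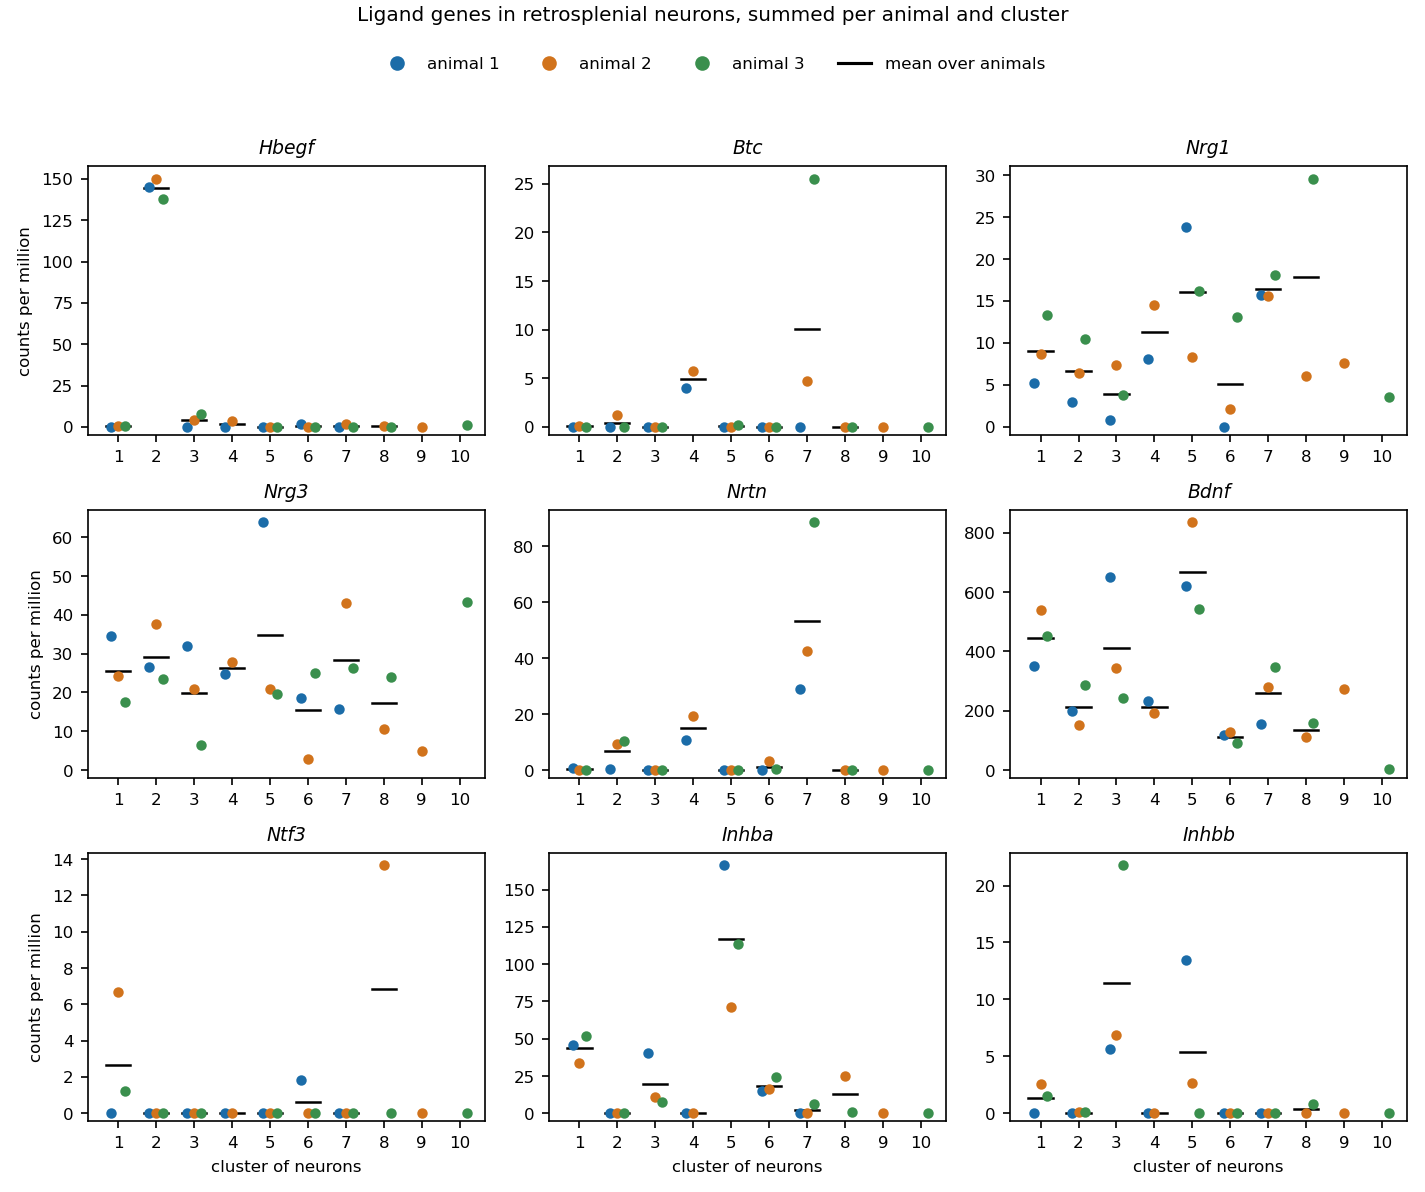
CPM of the 9 ligand genes (vertical axes, linear) in 10 clusters of neurons (horizontal axes); each point is 1 animal with at least 5 cells in the cluster and black lines are means over animals where at least 2 had a value. Hbegf stands at 138 to 150.02 CPM in cluster 2 and at 7.62 CPM or less elsewhere, Nrtn is highest in cluster 7 and Inhba in cluster 5, and Nrg1 and Nrg3 overlap across clusters.

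Hbegf had its counts concentrated in cluster 2. Its level there was 145 CPM in animal 1, 150.02 CPM in animal 2 and 138 CPM in animal 3 (144 ± 6.13, SD, n = 3). The highest value in any other cluster was 7.62 CPM, in cluster 3 of animal 3. Of all 3459 Hbegf counts in the table, 96.3% came from cluster 2. In the 11 samples, cluster 2 levels ran from 89.3 CPM through a median of 142 to 209.5 CPM, so every sample lay above every animal of the other clusters. A count was present in 104 of the 122 cells (85.2%, exact binomial 95% interval 77.7 to 91.0%), and in 84.4%, 79.1% and 91.5% of the cells of animals 1, 2 and 3. With each cell thinned to 54512 counts, which left out 77 of 765 cells, the share was 82.6% (74.4 to 89.0%). Behind cluster 2 the order was cluster 3 at 3.94 ± 3.82 CPM and cluster 4 at 1.65 ± 2.33 CPM, and no neighbours below the first place were apart beyond their animals. In cluster 5, 0 of 74 cells had a count (exact binomial 95% interval up to 4.86% of cells with a count), which does not show that the gene is absent from them.

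Btc counts were few and came from few cells. There were 287 in all, in 15 cells, of which 7 lay in cluster 7 and 5 in cluster 4, and 1 cell of cluster 7 held 145 of them (50.5%). In cluster 7 the level was 0 CPM in animal 1, 4.66 CPM in animal 2 and 25.5 CPM in animal 3, so the first place of this cluster in the order rests on animal 3. Cluster 4 stood at 4.02 CPM in animal 1 and 5.72 CPM in animal 2, above every animal of clusters 1, 2, 3, 5, 6 and 8, where the highest value was 1.22 CPM. The share of cells with a count was 11.5% in cluster 7 (4.74 to 22.2%) and 10.2% after thinning.

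The neuregulins Nrg1 and Nrg3, in contrast, were spread over the clusters. Nrg1 was found in 164 cells. Its highest mean, 17.8 ± 16.6 CPM in cluster 8, joined values of 6.07 CPM in animal 2 and 29.5 CPM in animal 3, while cluster 7 held 15.7, 15.5 and 18.04 CPM in animals 1 to 3. The lowest mean was 3.97 ± 3.28 CPM in cluster 3, and no 2 neighbours in the order of 8 clusters were apart. Nrg3 was found in 226 cells, with means from 34.8 ± 25.3 CPM in cluster 5 down to 15.5 ± 11.4 CPM in cluster 6, again with every pair of neighbours overlapping. The cluster 5 mean rests on animal 1, at 64.0 CPM against 20.9 and 19.6 CPM in the other animals. After thinning, Nrg3 was found in 41.7% of cluster 2 cells and 37.3% of cluster 7 cells, against 47.5% and 45.9% before.

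Nrtn was highest in cluster 7. Its level was 29.0 CPM in animal 1, 42.6 CPM in animal 2 and 88.6 CPM in animal 3 (53.4 ± 31.2, n = 3), and animal 1 contributed 8 cells, animal 2 21 and animal 3 32. Cluster 4, which shares the layer 5 extratelencephalic markers, came next at 10.7 CPM in animal 1 and 19.3 CPM in animal 2. Cluster 2 held 0.427, 9.41 and 10.5 CPM. The animals of clusters 7, 4 and 2 did not overlap between neighbours in this order, whereas clusters 3, 5 and 8 had 0 counts. A count was present in 40 of 61 cells of cluster 7 (65.6%, 52.3 to 77.3%), in 57.6% after thinning, against 23.8% of cluster 4 cells and 11.5% of cluster 2 cells. Levels in the 7 samples with at least 5 such cells spread from 13.1 CPM through a median of 42.5 to 152 CPM, a wider spread than for Hbegf in cluster 2.

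Bdnf was detected in 554 of 765 cells, and its level differed between clusters in degree. In cluster 5, the layer 6 intratelencephalic-like cells, it was 622, 836 and 543 CPM in animals 1, 2 and 3 (667 ± 152). Cluster 1 followed at 350.5, 539 and 451 CPM, and cluster 3 at 652, 344 and 242 CPM, so that animal 1 of cluster 3 lay inside the range of cluster 5. Clusters 7, 2 and 4 had means of 261 ± 98.99, 213 ± 66.9 and 213 ± 27.5 CPM and overlapped one another. Among clusters 1 to 8 the lowest levels were in the shallow cells of cluster 8 (112 and 158 CPM) and in the corticothalamic-like cluster 6 (117, 129 and 92.9 CPM), which overlapped each other and lay below every animal of cluster 4, their next neighbour. A count was present in 94.6% of cluster 5 cells and 53.5% of cluster 6 cells, and in 93.8% and 50.0% after thinning. In cluster 10, 3 of 11 cells had a count and the sum of animal 3 gave 3.60 CPM. Immediate early genes, which neuronal activity and dissociation can induce, had a summed level of 598, 1403 and 627 CPM in cluster 5 of animals 1, 2 and 3, highest in the animal with most Bdnf. In cluster 3 the sum was 994, 1387 and 1059 CPM while Bdnf was highest in animal 1. The part of these genes in the Bdnf level was not tested.

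Ntf3 was rare. The table held 110 counts in 10 cells, 6 of cluster 1, 3 of cluster 8 and 1 of cluster 6. Cluster 8 had 13.7 CPM in animal 2 and 0 in animal 3, and cluster 1 had 0, 6.69 and 1.24 CPM. Clusters 2, 3, 4, 5 and 7 had 0 counts, and the interval for 0 of the 122 cells of cluster 2 reaches 2.98% of cells with a count. The 2 clusters that held most Ntf3 counts share Calb1, Ddit4l and Penk as leading genes.

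Inhba, the activin beta A subunit, was highest in cluster 5, at 166 CPM in animal 1, 71.5 CPM in animal 2 and 113 CPM in animal 3 (117 ± 47.5). Cluster 1 came second with 45.7, 33.4 and 51.9 CPM, below every animal of cluster 5. Clusters 3 and 6 overlapped with each other at 19.6 ± 17.9 and 18.5 ± 5.17 CPM. The cells of clusters 2 and 4 were close to 0, with 2 and 1 counts in 122 and 80 cells. A count was present in 42 of 74 cluster 5 cells (56.8%, 44.7 to 68.2%) and in 56.2% after thinning, against 27.4% of cluster 1 cells. Single cells could hold much of it: the highest cell, in cluster 1, had 189 of 2976 counts. Inhbb, the beta B subunit, was sparser, with 307 counts in 33 cells, 19 of them in cluster 3. Its cluster 3 level was 5.62, 6.83 and 21.8 CPM in animals 1, 2 and 3, and cluster 5 overlapped it at 13.4, 2.69 and 0 CPM. One cell of cluster 3 held 29.3% of all Inhbb counts, and clusters 4, 6 and 7 had 0.

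Receptors of the ligands were measured in the same sums. The ErbB receptors were not analysed in the neurons. Gfra2, the co-receptor of neurturin, was highest in cluster 2 at 222, 229 and 202 CPM and in cluster 3 at 116, 221 and 195 CPM, which overlapped. It was lowest where Nrtn was highest, at 9.68, 11.1 and 21.4 CPM in cluster 7 and 11.4 and 3.47 CPM in cluster 4, and no animal of these clusters reached the values of clusters 2, 3, 5 or 6. Ret, the signalling kinase, was at most 7.19 CPM in an animal of clusters 1 to 8, and 26.4 CPM in the 6 cells of animal 3 in cluster 10. Ntrk2 was found in 738 cells and its cluster means lay between 150 and 396 CPM in clusters 1 to 8, with the lowest in the shallow cluster 8. Ntrk3, the receptor of neurotrophin-3, was, among clusters 1 to 8, lowest in clusters 2 and 3, at 27.7 and 30.3 CPM, and highest in clusters 8 and 4, at 84.3 and 79.8 CPM.

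Activin receptors differed from each other. Acvr1c, a type I receptor, was highest where Inhba was highest, in cluster 5, at 62.0, 29.6 and 50.3 CPM, followed by cluster 1 at 35.9, 42.4 and 21.7 CPM. In clusters 4 and 7 it was 1.04 CPM or less in every animal, and there Inhba was 5.97 CPM or less. Acvr1b, also a type I receptor, was 7.40 CPM or less in every animal of every cluster. Over the whole sections Acvr1b was 61.3 CPM in S4 and 76.9 CPM in S8. Neurons and spots were measured by different methods over different gene sets (15114 and 32285 genes), so these levels are not directly comparable. The cause of the difference was not tested. Acvr2a, a type II receptor, was more even, with means from 12.3 CPM in cluster 7 to 35.9 CPM in cluster 8 among clusters 1 to 8. None of these receptors or regulators had a cluster apart from all others in every animal.

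**Figure D2:**
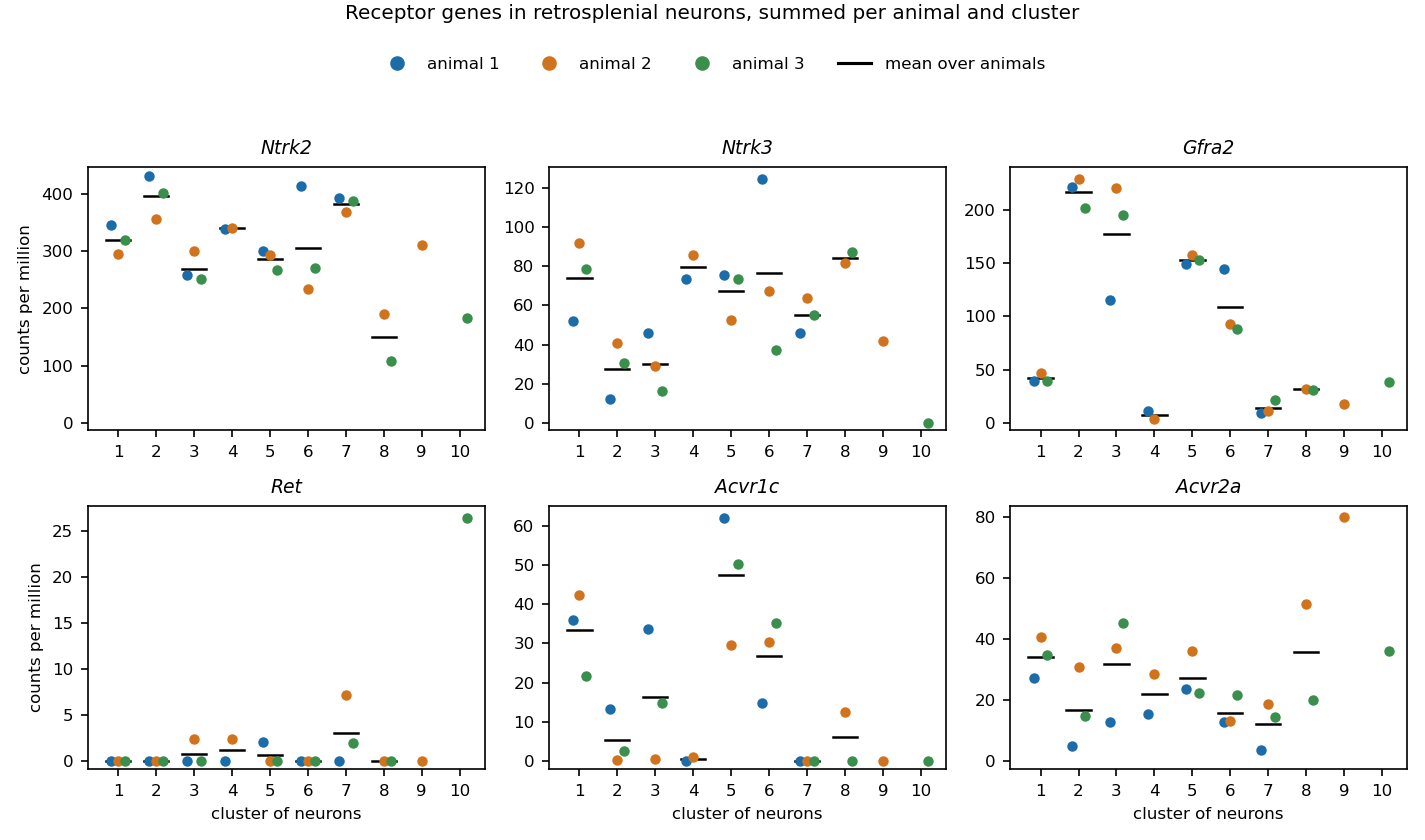
CPM of 6 receptor genes (vertical axes, linear) in 10 clusters of neurons (horizontal axes); points are animals with at least 5 cells in the cluster and black lines are means over animals. Gfra2 is low in clusters 4 and 7, at 21.4 CPM or less, where Nrtn is highest, and Acvr1c is highest in cluster 5, where Inhba is highest.

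Across the 24 sums of animal and cluster, the genes most like each ligand were found by the Pearson correlation of log2(CPM + 1), as a description in which the points share animals, clusters and depth. For Hbegf these were Hsd11b1 (r = 0.96), Fgd2 (0.96) and Thsd7a (0.95), all highest in cluster 2. Nrtn was closest to Gprc5b (0.88), Fam84b (0.85) and C1ql2 (0.84), all highest in cluster 7. The genes nearest to Btc were Qrfpr (0.80), Nrtn (0.79) and Psd3 (0.79). For Inhba they were Rasl10a (0.88), the activin receptor gene Acvr1c (0.87) and Ppp1r1a (0.85), all highest in cluster 5. Among the genes like Bdnf were Abhd6 (0.87) and Cdh10 (0.86), whose highest clusters were 1 and 9. The nearest genes of Inhbb, Nrg1 and Nrg3 reached 0.74, 0.82 and 0.74 (Syn1, Ccrn4l and Cntrob).

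Dissection level along the anterior to posterior axis was compared over animals, with counts summed per animal and level and tested with edgeR's quasi-likelihood test over all genes. Over all cells, 0 of the 9 ligand genes were called, at an adjusted p under 0.05 and a log2 fold change of at least 1, either between posterior and anterior or between medium and anterior cells. The background was 0.00734% of 13628 genes in each comparison, which is 1 gene, Ptgds, named here after its value was seen. Unadjusted p-values under 0.05 were reached by 594 genes in the posterior and 449 in the medium comparison, among them 2 and 1 of the ligands, and DESeq2 called 0 ligands as well. On simulated data for the posterior comparison, 123 of 200 genes changed by a log2 fold of 2 were recovered among 13628 genes, with 12 false calls. The median log2 fold change of the 9 ligands was 0.26 for posterior and −0.31 for medium, against 0.01 and −0.02 over all genes. For the 34 other pathway genes tested the medians were 0.09 and 0.16, and 0 were called.

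Nrtn and Btc had unadjusted p-values under 0.05 in these sums, as had Ntf3 in the posterior comparison. Nrtn was 0.554, 9.41 and 2.301 CPM in anterior sums of animals 1, 2 and 3, and 11.99, 14.2 and 15.9 CPM in medium sums, so the groups did not overlap (log2 change 1.67, SE 0.76, unadjusted p = 0.0453, adjusted p = 0.999 by edgeR). Cluster 7 had 2, 11 and 4 anterior and 4, 10 and 4 medium cells in animals 1, 2 and 3. In cluster 2, which had at least 5 cells at both levels in each animal, Nrtn was 0, 3.66 and 1.42 CPM in anterior and 0, 23.7 and 22.1 CPM in medium cells, higher in 2 of 3 animals and overlapping at 0 (log2 change 2.98, SE 1.43, unadjusted p = 0.0521, adjusted p = 0.999 by edgeR).

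In posterior sums Nrtn was 6.73, 5.58 and 25.4 CPM, which overlapped the anterior values. Btc was 0, 0.941 and 0.0434 CPM in anterior and 2.13, 3.83 and 10.1 CPM in posterior sums, higher in 3 of 3 animals (log2 change 3.79, SE 1.37, edgeR adjusted p = 0.956). All 205 Btc counts behind the posterior value of animal 3 came from cluster 7, and 1 cell held 145 of them. Cluster 4, which holds both genes, had 35, 42 and 1 posterior cells in animals 1, 2 and 3 but 0, 2 and 0 anterior cells. Cluster 7 had 24 posterior cells in animal 3 and 2 and 0 in animals 1 and 2. In neither cluster did 2 animals have 5 cells at both posterior and anterior levels, and the part of cell make-up in the posterior values was not tested. Posterior Hbegf sums were 33.3, 0.261 and 40.5 CPM in animals 1, 2 and 3. Animal 2 had 3 cluster 2 cells there, against 16 and 19 in animals 1 and 3, and its 3 Hbegf counts all came from cluster 1.

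Within clusters, 8 further comparisons could be made, posterior against anterior in clusters 1, 2, 3 and 5 and medium against anterior in clusters 1, 2, 3 and 6. The ligands that passed the filter on low counts numbered 4 to 6 in each, and 0 were called by edgeR or by DESeq2. Background shares were 0% in 7 of these comparisons and 0.00896% in the posterior comparison of cluster 5. Over all 10 comparisons, 11 of 61 tests of a ligand had an unadjusted p under 0.05 by edgeR. Over all genes, this held for between 302 of 11395 (posterior, cluster 2) and 639 of 10916 (medium, cluster 3) in a comparison. The comparisons share animals and anterior sums, so their tests are not independent. The lowest adjusted p of a ligand was 0.740.

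That lowest value belonged to Bdnf in cluster 3, medium against anterior. Anterior sums held 678, 495 and 342 CPM in animals 1, 2 and 3, and medium sums held 5.63 CPM in animal 2 and 127 CPM in animal 3, with no medium value for animal 1. Medium cells were therefore lower in 2 of 2 animals and the groups did not overlap (a log2 change of −2.87 with an SE of 0.82, adjusted p = 0.740 by edgeR). The animal 2 value came from 6 cells with 5 counts. Without animal 3 the log2 fold change was −6.72, on a lone medium sample. With no filter on low counts it was −2.89 with an edgeR adjusted p of 0.0159, and 10 of 14671 genes were called under that setting. The other alternatives gave an adjusted p of 0.440 or more.

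Hbegf in cluster 2 was 172, 172 and 139 CPM in anterior cells and 96.6, 120 and 86.8 CPM in medium cells of animals 1, 2 and 3, lower in 3 of 3 animals with no overlap. This was a log2 change of −0.68 with an SE of 0.29 (adjusted p = 0.999 by edgeR). Posterior cells, at 149 CPM in animal 1 and 203 CPM in animal 3, overlapped the anterior range. Bdnf in cluster 5 was 536, 465 and 325 CPM in anterior and 594, 546 and 709 CPM in posterior cells, higher in 3 of 3 animals. That log2 change was 0.51 with an SE of 0.23 and an edgeR adjusted p of 0.977. Medium cells of that cluster, measured in animal 2 alone, held 1231 CPM, the largest value of any level. Inhba in cluster 5 overlapped between levels, with 91.8, 99.1 and 82.1 CPM in anterior and 148, 20.8 and 131 CPM in posterior cells. Ntf3 in cluster 1 was 0 in all 3 anterior sums, and its posterior sums were 19.7 CPM in animal 2 and 6.18 CPM in animal 3. No fold is given for it because the fitted value depends on the prior count.

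**Figure D3:**
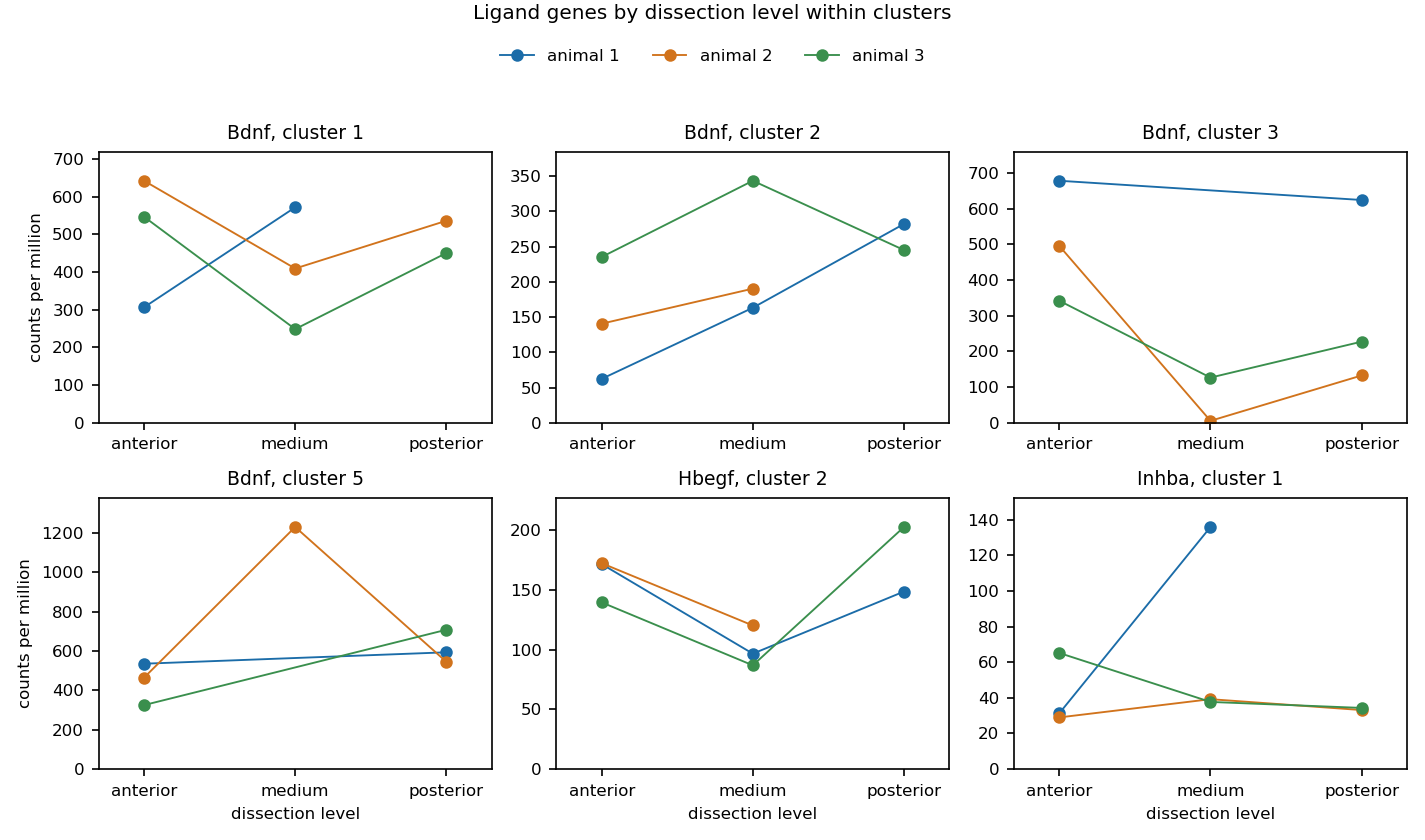
CPM (vertical axes, linear, from 0) at 3 dissection levels (horizontal axes) for Bdnf in clusters 1, 2, 3 and 5, Hbegf in cluster 2 and Inhba in cluster 1; each line joins the values of 1 animal, and values from fewer than 5 cells are left out. Medium cells of cluster 3 hold 5.63 and 127 CPM of Bdnf, below the 342 to 678 CPM of anterior cells, and medium cells of cluster 2 are below anterior cells for Hbegf in 3 of 3 animals.

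In the sections the 9 ligands were measured in tissue that holds glia, vessels and neurons, and fewer cells of a type and less RNA per cell cannot be told apart there. Section S4 had 1022 spots and 8436518 counts and section S8 951 spots and 6389042 counts. Over whole sections, Bdnf had 34.5 and 34.0 CPM in S4 and S8, Hbegf 9.01 and 8.77 CPM, Nrg1 8.30 and 8.45 CPM and Inhba 6.28 and 6.42 CPM. For these, and for Nrtn at 4.27 and 4.70 CPM and Ntf3 at 2.84 and 2.19 CPM, each section's value lay within the counting interval of the other. Nrg3 was 41.5 CPM in S4 (Poisson 95% interval 37.3 to 46.1) and 34.9 CPM in S8 (30.5 to 39.8), each value outside the interval of the other, and Inhbb was 6.40 CPM in S4 (4.81 to 8.35) and 4.70 CPM in S8 (3.17 to 6.70). Btc had 4 counts in S4 and 1 in S8. These intervals cover counting error only.

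Spots were clustered with each gene centred within its section, and 9 zones had at least 10 spots in both sections. Of the 9 ligands, 2 had the same highest zone in both sections and were above all other zones in both, Bdnf and Hbegf, against backgrounds of 22.9% and 13.5% of 16700 genes with a count in both sections. Bdnf was highest in zone 3, whose leading genes were Stard8, Cux2 and Rasgrf2, at 59.6 CPM in S4 (71 counts) and 61.7 CPM in S8 (52 counts). Calb1 was also among the 10 leading genes of that zone, and the 5 leading genes of neuron cluster 1 summed to 591 and 527 CPM there, their highest values. In zone 4, led by Ighm, Foxp2 and Trbc2, Bdnf was 13.8 and 27.5 CPM. In dissociated neurons Bdnf was highest in cluster 5. The 5 leading genes of that cluster (Penk, Oprk1, Osr1, Rgs12 and Cryab) had their highest sums in zone 4, at 331 and 384 CPM. The order of Bdnf over zones did not follow these sums. Oligodendrocyte markers were also highest in zone 4, at 4691 and 5855 CPM. The part of other cell types in the sums of the 5 genes was not tested. Summed immediate early genes were 1252 and 2492 CPM in zone 3 and 1450 and 2558 CPM in zone 4, so the zone with more Bdnf did not have the larger sum. Their part in the Bdnf levels was not tested.

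In the sections Hbegf and the genes of neuron cluster 2 had different highest zones, but Hbegf counts were few. Hbegf was highest in zone 9, led by Ptgds, Myoc and Slc13a4. Its level there was 18.5 CPM in S4 and 24.1 CPM in S8, on 8 and 4 counts. Next came zone 8 in S4, at 17.2 CPM on 12 counts, and zone 1 in S8, at 12.5 CPM on 13 counts. Zone 2, led by Tshz2, Cbln1 and Nrep, held the highest sum of the 5 leading genes of cluster 2, at 157 and 174 CPM. Hbegf was 6.20 and 5.45 CPM in zone 2, on 6 and 5 counts. The Poisson intervals of Hbegf in zone 9 were 8.01 to 36.5 CPM in S4 and 6.58 to 61.8 CPM in S8. They overlapped those in zone 2, at 2.27 to 13.5 and 1.77 to 12.7 CPM. These counts are too few to settle the order of the 2 zones. In zone 9 the astrocyte markers summed to 1092 and 1346 CPM, the endothelial markers to 148 and 163 CPM, the mural markers to 123 and 127 CPM and the microglial markers to 125 and 290 CPM, each the largest sums of any zone. The fibroblast or meninges markers summed to 125 and 115 CPM there. In the same zone Egfr, a receptor of HB-EGF, was 25.5 and 42.2 CPM, on 11 and 7 counts, against 12.9 CPM or less in the other zones. Zone 3 in S4 and zone 2 in S8 also held 11 Egfr counts each. The part of other cell types in the Hbegf of zone 9 was not tested.

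Nrtn was highest in zone 2 in S4, at 11.4 CPM on 11 counts, and in S8 zone 2 held 11.99 CPM on 11 counts, second to zone 9 at 24.1 CPM on 4 counts. Zone 2 has C1ql2 among its leading genes, and 5 leading genes of cluster 7 other than Nrtn (C1ql2, Qrfpr, Tns1, Gprc5b and Pvalb) summed to 406 and 403 CPM there, their highest values. The 5 leading genes of cluster 4, the cluster second in Nrtn, summed to 115 and 161 CPM in zone 2 and were highest in zone 9, at 148 and 169 CPM. They include C1ql2, Qrfpr and Gprc5b, so most of the cluster 7 sum in zone 2 came from Tns1 and Pvalb. The 5 leading genes of cluster 10, which also include Pvalb, summed to 385 and 320 CPM in zone 2. Which cells of the spots held Pvalb was not tested. Zones 1 and 5 held 0 to 1 Nrtn counts in each section. Gfra2, in contrast, was 79.5 and 65.4 CPM in zone 2 and highest in zone 7 (led by Rspo1, Rorb and Pamr1), at 135 and 96.4 CPM. Inhba was 12.6 and 10.7 CPM in zone 3 and 7.43 and 13.5 CPM in zone 1, led by Trh, Nnat and Calb2, and 2.07 and 3.27 CPM in zone 2. Acvr1c was 34.4 and 36.8 CPM in zone 3 and 31.8 and 28.9 CPM in zone 1, and 3.099 and 6.54 CPM in zone 2. For Acvr1c these were the 2 highest zones of each section, and for Inhba of S8, while zone 9 ranked second for Inhba in S4 on 4 counts. Erbb4, the receptor shared by HB-EGF and the neuregulins, had 34.4 and 30.1 CPM over the sections. Over the zones it ran from 25.5 to 47.4 CPM in S4. In S8 it ran from 12.2 CPM (zone 8, on 3 counts) to 66.4 CPM (zone 9, on 11 counts).

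**Figure D4:**
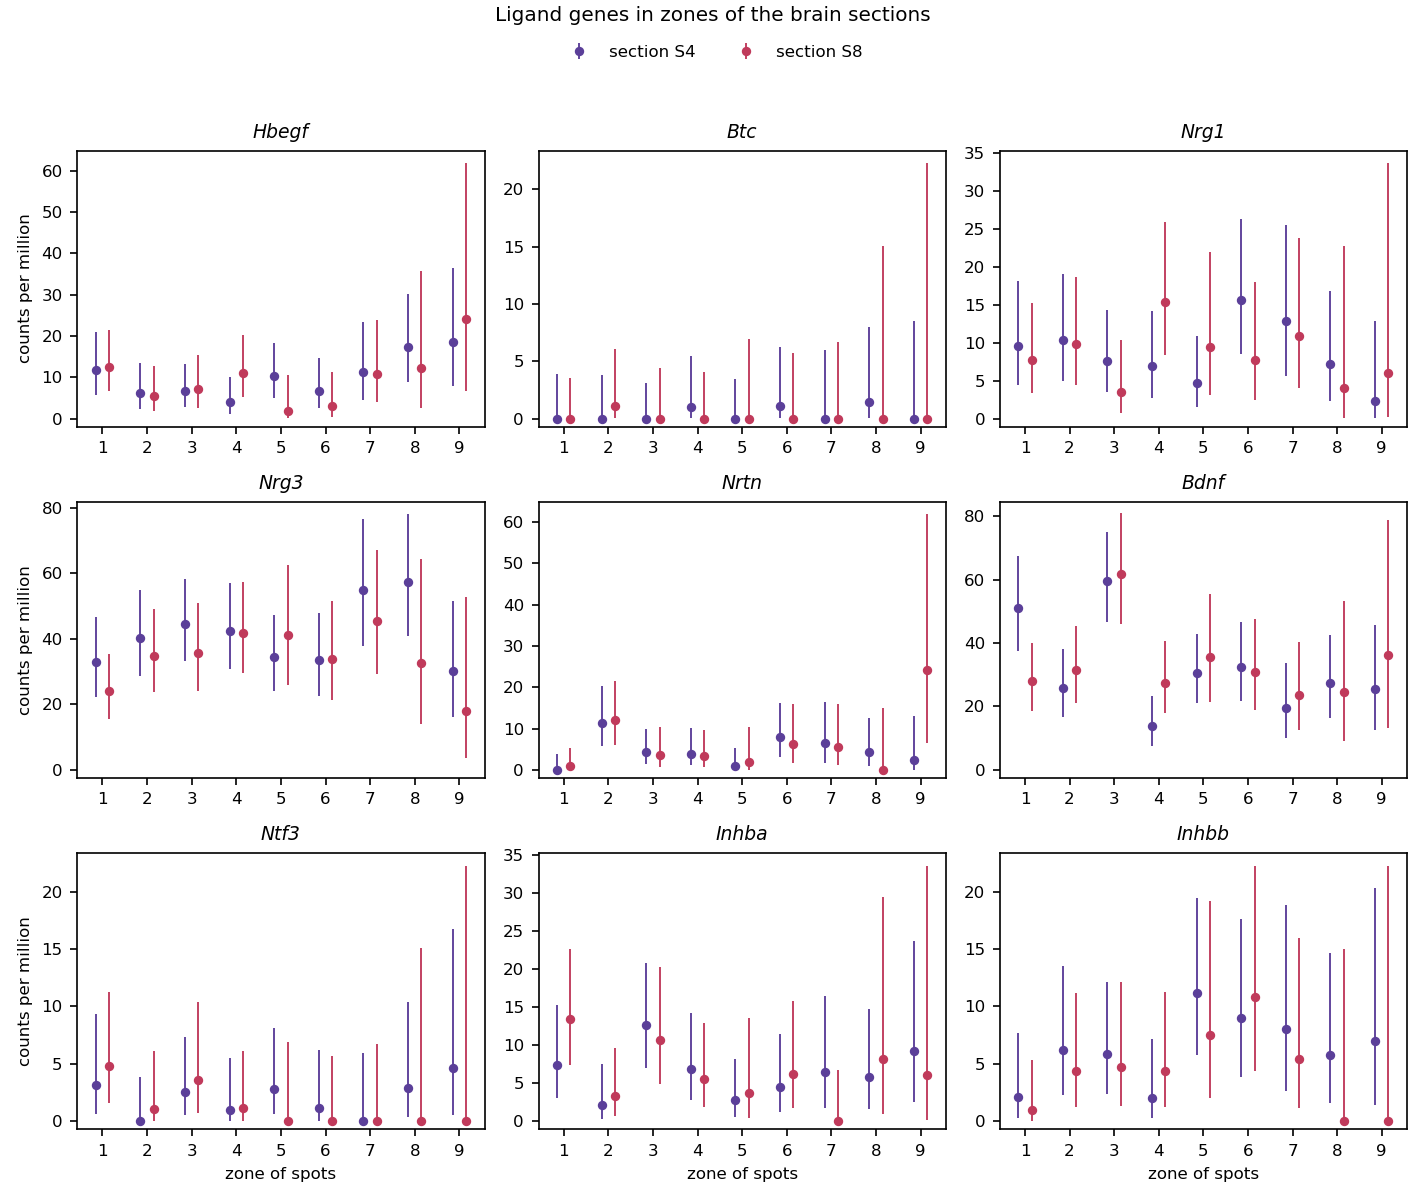
CPM of the 9 ligand genes (vertical axes, linear) in 9 zones of spots (horizontal axes) for sections S4 and S8; bars are exact Poisson 95% intervals and cover counting error only. Bdnf stands highest in zone 3 in both sections, at 59.6 and 61.7 CPM, and Hbegf in zone 9 on 8 and 4 counts, while Btc has at most 1 count and Ntf3 at most 5 counts in a zone.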

How the data were processed

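Single neurons of the retrosplenial cortex and spots of 2 brain sections were measured. Both tables were deposited as counts, in whole numbers, made by the authors for every gene in each cell or spot. Seurat, Space Ranger and the builds NCBIM37 and mm10 are named per the submitters' processing notes, while aligner, cell filters and whether cell counts are reads or molecules are not given in the sources used here. Intervals cover counting error only. Headers gave each cell's sample and dissection level, a deposited table its animal, and no count column lacked a sample (0). The 11 cell samples held between 2306470 and 15974543 counts. Deposited totals matched for 1973 of 1973 spots, and 162 spot barcodes occur in both sections. S4 and S8 are library names.

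The ligand genes and pathway lists were chosen with earlier results of these data known. Clustering of cells and of spots used scanpy 1.11.5 (10000 counts per cell, logged, 2000 variable genes, 30 components, 15 neighbours, Leiden resolution 1). A cluster was named where every marker of a type was found in at least 25% of its cells and exceeded the mean of the other clusters by at least 1 (log2). Clusters 4 and 7 reached this for the layer 5 extratelencephalic markers but were left unnamed, as none of their first 3 leading genes was such a marker. By the column names each cell came from its own well, and no doublet caller was run. Named receptors are those of the ligands, and the 3 most alike genes needed a mean of 5 CPM. One of these genes is not reported here. Dissection levels were tested with edgeR 4.0.16 (filterByExpr, TMM, glmQLFTest) with Benjamini-Hochberg adjustment over all genes tested, on sums of at least 5 cells per animal, without an animal block. DESeq2 1.42.0 was an alternative. The fit of the posterior comparison over all cells, and no other, was tested on simulated data. Sums of the same animal share that animal, per the deposited table, and their deviations from the level means correlated at 0.02 to 0.23, against −0.25 to 0.14 between animals. Counting was not stated to use strand. Promoter windows are those of RefSeq on GRCm38.p6.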

Additional observations from a re-analysis of the deposited data

Results flagged for a closer look

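All ligands, both levels and all pairs of clusters with 3 animals at both levels were screened for differences in opposite directions. Bdnf was flagged, posterior against anterior, in clusters 3 and 5. In cluster 3 the posterior sums had a mean of 328 CPM and the anterior sums 505 CPM, lower in 3 of 3 animals. Animals 1, 2 and 3 held 624, 133 and 227 CPM there in posterior sums, against 678, 495 and 342 CPM in anterior sums. In cluster 5 the means were 616 and 442 CPM, higher in 3 of 3 animals. The posterior minus anterior difference of cluster 3 less that of cluster 5 was −351 CPM. The difference between the clusters was not tested, and the edgeR adjusted p within each cluster was 1 for cluster 3 and 0.977 for cluster 5. Sample values of the ligands in their highest cluster were checked for a sample far from the others in 6 groups of 4 to 10 samples, and 0 stood apart, where chance gives about 1 in 20.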

How the results depend on the processing

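The number of ligands with 1 cluster above all others in every animal was 3, and 3 to 4 when shallow cells were left out, cells were thinned, library sizes were set by TMM, clusters were drawn without the ligands or at resolution 0.5, or cells were grouped by marker genes. Hbegf and Nrtn were among them under each setting run, and Inhba under all except the marker grouping. That grouping put 74 cells of cluster 4 and 61 of cluster 7 together, so it cannot show Nrtn apart in cluster 7. Its markers included Tnnc2 and Eps8l2, leading genes of cluster 2, so for Hbegf it is not independent of the clusters. At resolution 0.5 only 6 groups were compared, and Btc and Nrtn stood apart in the same group. Over all genes the share was 7.09% in the main setting. It ran from 4.76% (marker grouping) to 8.09% (shallow cells left out) in the other settings with all animals. Leaving out animal 1, 2 or 3 gave 6, 3 and 3 ligands, against 18.1%, 17.1% and 15.1% of all genes. Of 77 recomputed levels of the highest cluster against the others, 62 moved by less than 1 SD over animals, 12 moved more and 3 reversed: Nrg3 to −0.0024 (log2) in thinned cells and −0.11 without animal 1 (up to 0.86 with another animal left out), and Nrg1 to −0.0234 at resolution 0.5. Detection in at least 25% of the highest cluster held for 4 ligands thinned and 5 unthinned.

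With the animal as a block, 0 ligands were called in any comparison, and the count of all genes in the posterior comparison over all cells was 14 in place of 1, with 56 by DESeq2, 1 to 2 with an animal left out, and 6 by DESeq2 (0 without animal 1) in the medium comparison. The block changed no ligand's call. In cluster 3, medium against anterior, 1 ligand (Bdnf) was called with no filter, among 10 of 14671 genes called. Without animal 1, 0 ligands were called there, and leaving out animal 2 or 3 left a lone medium sum. The posterior log2 fold change of Inhba in cluster 5 reversed to −0.19 with the block, and to −0.20 and −0.25 without animals 1 and 3 (0.69 without animal 2), and that of Hbegf in cluster 2 to −0.21 without animal 3 (0.39 without animal 1). With spots clustered without centring, 4 ligands shared their highest area between sections, among 3 areas in place of 9 zones. The cause of these shifts was not tested. Depth limits Btc, Ntf3 and Inhbb, which rest on 287, 110 and 307 counts in neurons, and section zones, where no ligand but Bdnf and Nrg3 exceeds 15 counts.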

Other observations

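Pairs of ligands were also counted in the same cells of a cluster. In cluster 5, 40 of 74 cells had a count of both Bdnf and Inhba, of 70 with Bdnf and 42 with Inhba. In cluster 7, 4 of 61 cells had both Btc and Nrtn, of 7 with Btc and 40 with Nrtn. In cluster 2, 11 cells had both Hbegf and Nrtn, of 104 and 14. No test was made of these counts. They do not show that 2 ligands occur together more often than their separate frequencies would give.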
